A study of Homo sapiens with 2 samples.

Results

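Transcription factors of the squamous lineage were examined in CP-A, a non-dysplastic cell line from Barrett's esophagus, a metaplasia in which columnar cells line part of the esophagus. The list held 10 genes, TP63, SOX2, PAX9, KLF4, OVOL1, ZNF750, GRHL1, GRHL3, TFAP2A and TFAP2C, taken by their symbol with no threshold on a measured value, and 9 of them were found among the 17660 genes measured. TP63 was not analysed here. One culture was exposed to pH 6.4 + DCA, the secondary bile acid deoxycholic acid, and the other was the control without acid or DCA. Per the methods of the study, CP-A cells went through 3 exposures, each of 48 h in acidified medium that held 100 µM DCA, and grew in basal medium in between. Both cultures are the same line, immortalized with telomerase reverse transcriptase, TERT, and share a medium with EGF, hydrocortisone and cholera toxin. RNA of each culture was read on 1 Clariom S human array, in which a set of short probes gives 1 signal per transcript cluster. Values are deposited log2 levels, and differences are pH 6.4 + DCA minus control on the log2 scale.

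With 1 array for each condition there are no replicates, and neither an error nor a p-value can be attached to a difference. The words higher and lower are kept for signals that differed by 2-fold or more, the threshold stated in the methods. Levels of different genes come from different probes and were not compared with each other, so a level is described by where it lay among the signals of its own array. The quartiles of that array were 4.50, 6.72 and 9.55 for pH 6.4 + DCA and 4.48, 6.77 and 9.56 for control. Signals of both arrays correlated at r = 0.982 across genes, which are not independent replicates. Nocodazole, which blocks mitosis, was used before RNA extraction for RT-qPCR, and whether this holds for the RNA on the arrays is not stated.

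The stratified squamous lining of the esophagus grows from a basal layer, and its cells leave the cell cycle and flatten as they move towards the lumen. The p63 protein maintains the basal layer, SOX2 and PAX9 pattern the foregut and the squamous esophagus, and AP-2 proteins act on keratin genes of the basal layer. KLF4, ZNF750, GRHL3 and OVOL1 act later, in cells that differentiate and form a barrier. In Barrett's esophagus this programme gives way to one of columnar and intestinal cells.

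None of the 9 squamous transcription factors was 2-fold higher or lower in cells exposed to pH 6.4 + DCA. Over all genes, 444 of 17660, or 2.51%, were higher and 727, or 4.12%, were lower, so that 6.63% passed the threshold in either direction. At this background a count of 0 among 9 genes does not set the list apart. The members had a median difference of -0.08, beside -0.0001 over all genes, with 4 above 0 and 5 below it. Their absolute differences had a median of 0.28, beside 0.30 over all genes. The differences ran from -0.75 in GRHL3 to 0.78 in KLF4. When all genes were divided into 4 bins of equal size by mean level, each of the 9 members lay inside the middle 90% of differences of its own bin. A threshold of 1.5-fold was passed by KLF4 upward and by GRHL3 downward, and over all genes by 10.6% upward and 11.8% downward, or 22.4% in either direction. At 3-fold, which no member passed, the shares were 0.487% upward, 1.49% downward and 1.98% in either direction.

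**Figure D1:**
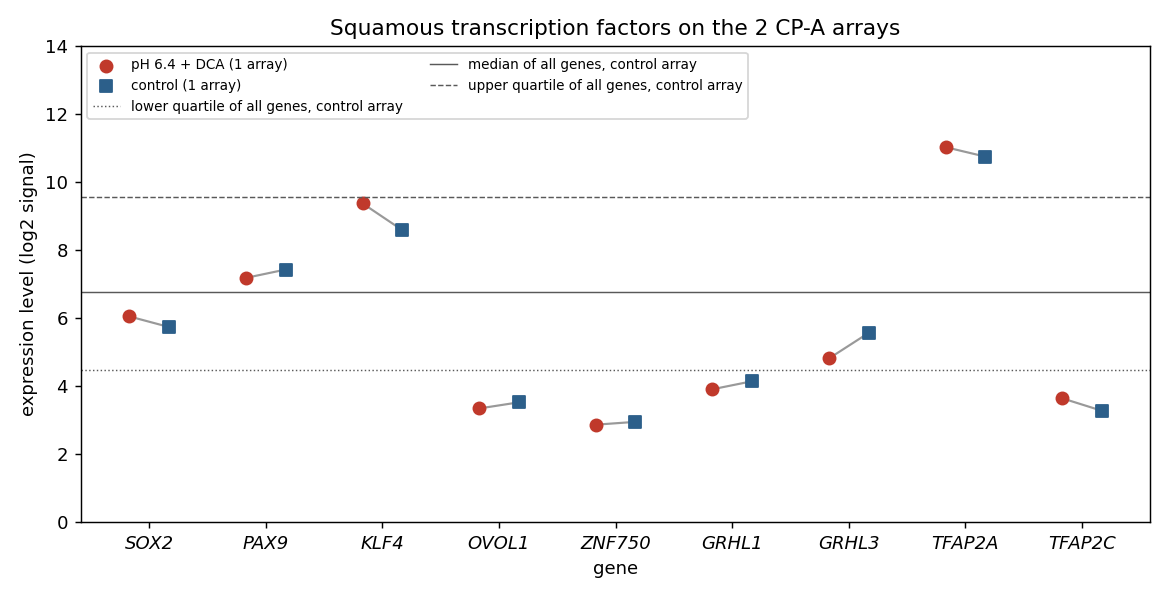
Log2 signal of the 9 squamous transcription factors measured, with pH 6.4 + DCA as circles and control as squares, 1 array each. Horizontal lines mark the quartiles of all genes on the control array. TFAP2A lay above the upper quartile on both arrays, at 11.02 and 10.75, while OVOL1, ZNF750, GRHL1 and TFAP2C lay under the lower quartile on both.

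Signals of the members were spread over all parts of the range. TFAP2A was above the upper quartile of both arrays, and KLF4 and PAX9 lay between the median and the upper quartile. SOX2 and GRHL3 lay between the lower quartile and the median. OVOL1, ZNF750, GRHL1 and TFAP2C were under the lower quartile on both arrays, where a signal is hard to tell from background and a ratio rests on little. Detection p-values were not used here.

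Among regulators of the differentiating layers, KLF4 and GRHL3 had the largest differences of the list, in opposite directions. KLF4, a zinc finger protein needed for the barrier of the skin in the mouse, had a log2 level of 9.37 on the pH 6.4 + DCA array and 8.59 on the control array. With a difference of 0.78 the signal of exposed cells was 1.72 times that of control, under the 2-fold threshold, and 5.37% of all genes had a difference as high or higher. In the level bin that holds KLF4, the middle 90% of differences ran from -1.21 to 0.90. KLF4 lies on chromosome 9, where the median difference of 709 genes was 0.16. Chromosomes of the other members had medians from -0.06 on chromosome 14 to 0.01 on chromosome 3. The part of the chromosome in the value of any member was not tested.

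GRHL3, a grainyhead-like factor that directs late differentiation and wound closure in epidermis, was at 4.81 with pH 6.4 + DCA and 5.57 in control. The difference was -0.75, so that the control signal was 1.68 times that of exposed cells, and 7.66% of all genes had a difference as low or lower. Its level bin had a middle 90% of -0.92 to 0.79. OVOL1, a zinc finger repressor that helps keratinocytes to leave the cell cycle, was at 3.34 in exposed cells and 3.52 in control cells, a difference of -0.18. ZNF750, which acts downstream of p63 in epidermal differentiation, was at 2.87 and 2.95 on the pH 6.4 + DCA and control arrays, a difference of -0.08, and 1.00% and 1.59% of genes had a weaker signal on these arrays. GRHL1, a relative of GRHL3 that acts on desmosomal cadherin genes, was at 3.91 with pH 6.4 + DCA and 4.14 without, a difference of -0.24. These 3 weak signals came from the lowest level bin, in which the middle 90% of differences ran from -0.58 to 0.68.

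The upstream sequences of KLF4 and GRHL3 are shown because these genes stood at both ends of the range of differences. They are the 250 bases before the first start site that RefSeq lists on GRCh38.p14, at chr9:107489770-107490019 on the minus strand for KLF4 and chr1:24319107-24319356 on the plus strand for GRHL3, each written 5′ to 3′. Capitals mark letters that match a simple motif of a member's family, searched on both strands. The motifs were GCCNNNGGC for AP-2 factors, CACCC for Krüppel-like factors, AACCNGTT for grainyhead-like factors, ATTGTT for SOX factors and CCGTTA for OVO-like factors.
KLF4: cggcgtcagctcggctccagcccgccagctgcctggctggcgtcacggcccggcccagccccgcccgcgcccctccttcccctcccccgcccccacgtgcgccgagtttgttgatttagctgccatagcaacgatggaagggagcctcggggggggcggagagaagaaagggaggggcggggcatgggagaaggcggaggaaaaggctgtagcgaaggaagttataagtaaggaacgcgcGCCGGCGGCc
GRHL3: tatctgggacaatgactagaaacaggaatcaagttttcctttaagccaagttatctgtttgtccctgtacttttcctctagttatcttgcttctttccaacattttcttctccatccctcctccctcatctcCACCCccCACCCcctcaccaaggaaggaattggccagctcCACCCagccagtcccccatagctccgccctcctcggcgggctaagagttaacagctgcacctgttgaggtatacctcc

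The KLF4 window held 1 match, to the AP-2 motif, which starts 10 bases before the start site. The GRHL3 window held 3 matches to CACCC, at 118, 111 and 78 bases before the start site. No 2 motifs overlapped in either window. GRHL3 has a further listed start site, whose window is not shown. That window held an AP-2 match 50 bases and a CACCC match 41 bases before its start site. Over 35116 RefSeq windows of 250 bases, 19.8% held the AP-2 motif, 54.7% CACCC, 1.49% the grainyhead-like motif, 8.98% the SOX motif and 2.45% the OVO-like motif, so that the CACCC matches are of a kind most promoters have. The SOX2 window held the same AP-2 letters as that of KLF4, 131 bases before its start site. Such matches are letters in a window and do not show binding. Promoter entries were found for 6 of the 9 measured members.

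**Figure D2:**
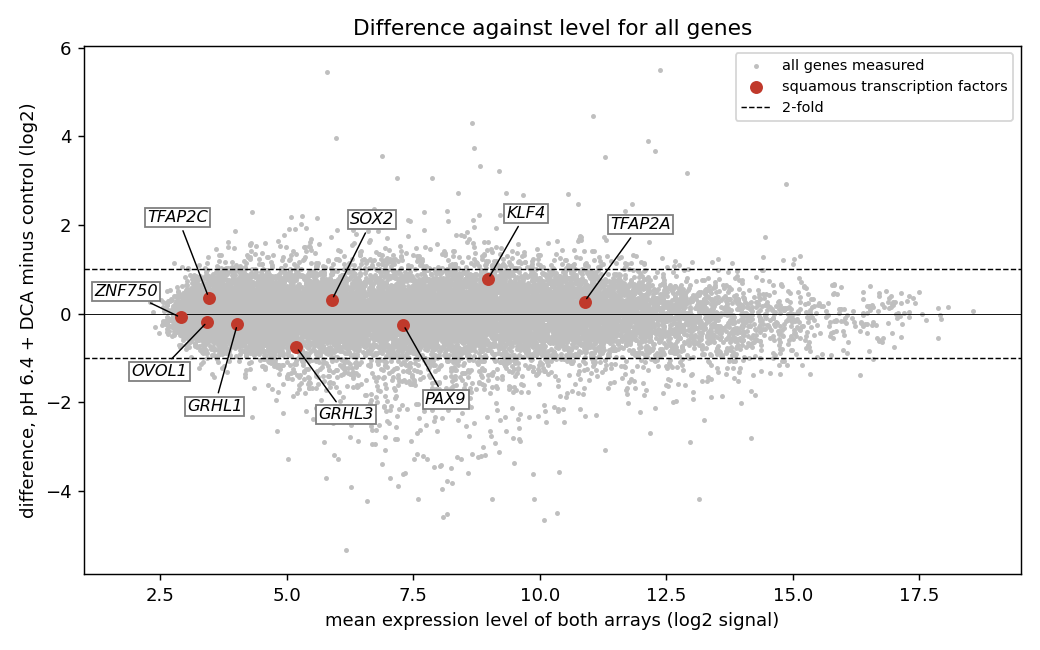
Difference between pH 6.4 + DCA and control on the log2 scale against the mean level of both arrays, with 1 grey point for each of 17660 genes and the 9 squamous transcription factors as labelled points. Dashed lines mark 2-fold, and all labelled points lie between them, from -0.75 for GRHL3 to 0.78 for KLF4.

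Regulators of the basal layer and of foregut identity differed by at most 0.37. TFAP2A, which encodes AP-2 alpha, was at 11.02 on the pH 6.4 + DCA array and 10.75 on the control array, a difference of 0.28. On the pH 6.4 + DCA and control arrays 86.6% and 84.5% of genes had a weaker signal. TFAP2C, which encodes AP-2 gamma, was at 3.64 in exposed cells and 3.28 in control cells, a difference of 0.37 between weak signals. With 32 added to both values on the linear scale, which damps weak signals, that difference was 0.09. SOX2 was at 6.05 with pH 6.4 + DCA and 5.74 in control, a difference of 0.31, and 24.0% of genes had one as high. PAX9, a paired-box factor of pharyngeal and esophageal epithelium, was at 7.18 with pH 6.4 + DCA and 7.43 in control, a difference of -0.24.

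Close relatives of the members can share their binding sites. Of 17 relatives listed 16 were measured and none was 2-fold higher or lower, a count that does not set them apart at a background of 6.63%. SOX15, of the same family as SOX2 but listed with the other squamous regulators, is not in this count and had a difference of -2.17. The relatives had a median difference of -0.01, which was 0.04 after centring, 0.02 after quantile normalization and 0.00458 with the lowess trend removed. All 3 grainyhead-like genes had a difference below 0, also under each other scaling that kept them. GRHL2, which maintains epithelial junctions and opposes ZEB1, was at 8.08 in exposed cells and 9.03 in control cells, and its difference of -0.95 was the largest among the relatives. It stood beside -0.75 for GRHL3 and -0.24 for GRHL1. In the OVO-like family, OVOL2 was at 6.25 and 6.89 on the pH 6.4 + DCA and control arrays, a difference of -0.64, beside -0.18 for OVOL1 and 0.23 for OVOL3.

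Among the 6 Krüppel-like genes listed KLF4 was the single one above 0. These 6 are a selection, and other genes of the family were not examined. KLF1, at -0.04, was at 0.02 after centring of the arrays. KLF5 was at 0.06 after quantile normalization and 0.03 with the lowess trend removed. KLF5, a factor of proliferating basal cells in the esophagus of the mouse, lay above the upper quartile of both arrays, at 14.57 with pH 6.4 + DCA and 14.65 in control, with a difference of -0.09. KLF3 differed by -0.87 and KLF2 by -0.75. The AP-2 genes TFAP2B, TFAP2D and TFAP2E differed by 0.01, -0.24 and 0.28. TFAP2A was the single AP-2 gene with a signal above the median of its array.

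**Figure D3:**
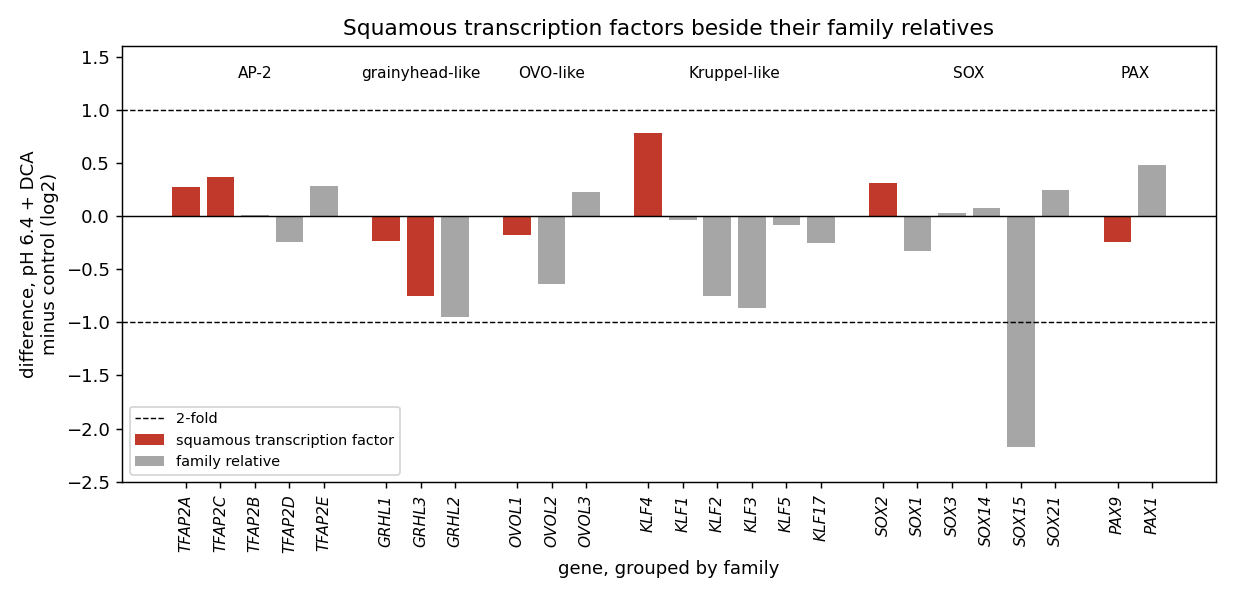
Difference between pH 6.4 + DCA and control on the log2 scale for the squamous transcription factors, in red, and other genes of their families, in grey, as bars from 0, with SOX15 and KLF3 taken from the list of other squamous regulators. Dashed lines mark 2-fold. Among these genes SOX15 alone passed it, at -2.17, and GRHL1, GRHL3 and GRHL2 were all below 0.

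Other regulators of squamous epithelium included 2 that were lower, SOX15 and POU2F3. Of 19 listed, 17 were measured and none was higher, where 4.12% of all genes were lower and 2.51% higher. Of the 17 differences 9 were above 0 and 8 below it. The median difference was 0.02, or -0.02 with weak rows left out. BNC1 differed by 0.85, with a control signal under the lower quartile, PRDM1 by 0.60 and PITX1 by 0.57. SOX15, a SOX factor of stratified epithelium, was at 7.11 in exposed cells and 9.28 in control cells, 4.51-fold lower with pH 6.4 + DCA, while SOX2 differed by 0.31. POU2F3, a POU factor of the suprabasal epidermis, was at 5.39 and 6.77 on the pH 6.4 + DCA and control arrays, a difference of -1.38, and at -0.93 with 32 added on the linear scale it no longer passed 2-fold. TRIM29, at 13.36 in exposed cells and 13.41 in control cells, and PITX1, at 11.44 and 10.86 on these arrays, lay above the upper quartile of both. ZNF750 acts with chromatin proteins, and of 4 listed the 3 measured, RCOR1, CTBP1 and CTBP2, differed by -0.07, 0.26 and -0.51.

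A few squamous genes were lower by more than 5-fold, the keratins KRT14 and KRT16 and the cornified envelope genes SPRR1A and SPRR1B. Factors of the list control genes of this kind in squamous epithelia, and a link in these cells was not tested. Of 22 basal genes listed 14 were measured, of which 2 were lower and 1 was higher, beside 4.12% and 2.51% of all genes. The median difference was -0.46. The keratin KRT14, partner of KRT5 in basal cells, was at 11.54 in exposed cells and 14.42 in control cells, 7.38-fold lower. KRT16 was listed with the basal genes, though it is a keratin of stressed and wounded epithelium. KRT16 was at 12.77 with pH 6.4 + DCA and 15.57 in control, 6.94-fold lower. The receptor gene EGFR was higher, at 13.05 on the pH 6.4 + DCA array and 11.78 on the control array. KRT5 differed by -0.60. Keratin genes have close copies whose signals the array may not fully separate, so the values of KRT14 and KRT16 are uncertain to that extent.

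Of 28 suprabasal and cornification genes, all measured, 4 were lower and 1 was higher, beside 4.12% and 2.51% of all genes. In this list 7 differences were above 0 and 21 below it, and the median was -0.17. The 3 lowest were small proline-rich proteins of the cornified envelope, while SPRR3 of the same family differed by -0.24. SPRR1A was at 7.17 in exposed cells and 10.39 in control cells, 9.31-fold lower. SPRR1B was at 5.77 and 8.20 on the pH 6.4 + DCA and control arrays, 5.38-fold lower, and SPRR2A at 6.74 and 8.28, 2.91-fold lower. These genes also have near-identical copies. KRT13, a keratin of the suprabasal esophagus, was at 4.77 with pH 6.4 + DCA and 5.77 in control, a difference of -1.01 that was -0.95 after centring and -0.55 with 32 added. The plakin gene PPL was higher, at 8.95 in exposed cells and 7.63 in control cells. IVL, which encodes involucrin, differed by -0.86 and TGM1, which encodes the crosslinking transglutaminase, by -0.21. The desmosomal cadherin gene DSG1 went the other way, at 5.70 in exposed cells and 4.81 in control cells, a difference of 0.89.

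The upstream sequences of SPRR1A and SPRR1B are shown as those of the cornification genes with the largest differences, marked in the same way. They lie at chr1:152983831-152984080 and chr1:153030953-153031202 on the plus strand of GRCh38.p14.
SPRR1A: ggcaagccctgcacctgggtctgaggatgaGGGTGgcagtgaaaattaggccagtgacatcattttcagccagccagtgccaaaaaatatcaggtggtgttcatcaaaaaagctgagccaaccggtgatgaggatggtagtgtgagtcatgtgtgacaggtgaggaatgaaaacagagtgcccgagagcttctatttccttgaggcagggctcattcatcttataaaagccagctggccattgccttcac
SPRR1B: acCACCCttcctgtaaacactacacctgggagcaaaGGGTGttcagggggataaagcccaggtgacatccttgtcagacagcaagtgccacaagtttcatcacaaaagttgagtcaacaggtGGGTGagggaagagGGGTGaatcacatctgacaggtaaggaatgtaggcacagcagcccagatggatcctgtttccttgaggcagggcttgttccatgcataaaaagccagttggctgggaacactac

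The SPRR1A window held 1 match to CACCC, read as GGGTG, 220 bases before the start site. SPRR1B held 4 such matches, at 248, 214, 128 and 114 bases. Neither window held a match to the motifs of the other 4 families.

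**Figure D4:**
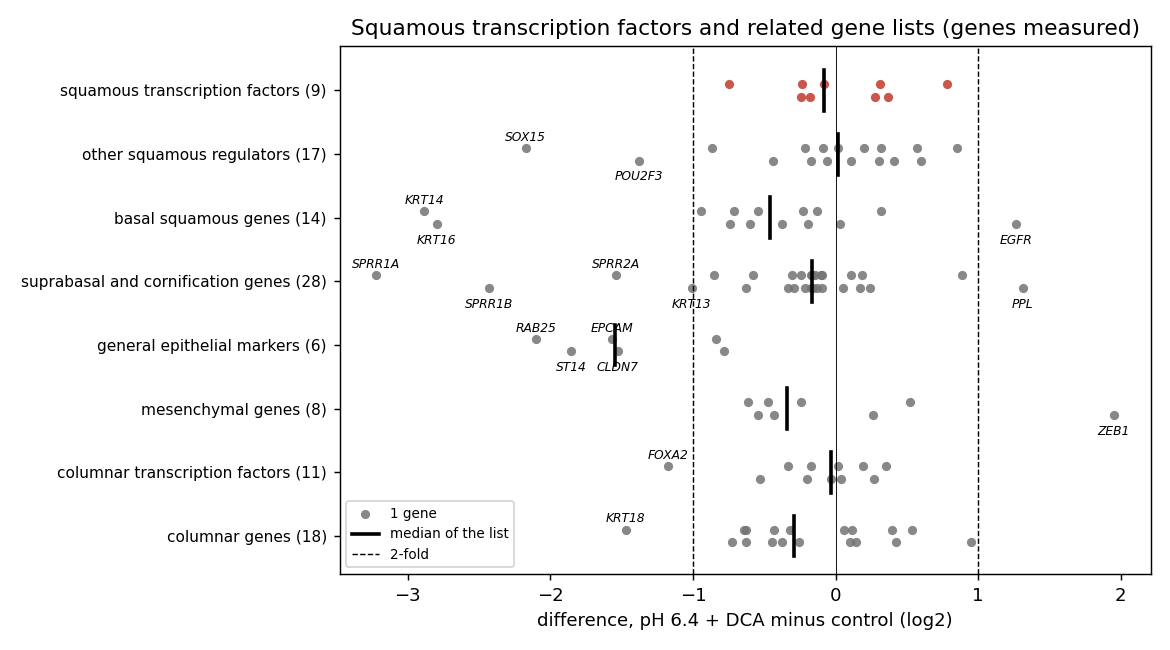
Difference between pH 6.4 + DCA and control on the log2 scale for the squamous transcription factors, in red, and for related gene lists, in grey, with 1 point per gene and the number measured in parentheses. Black bars are medians, dashed lines mark 2-fold and genes past it are named. The 9 factors lie between -0.75 and 0.78, while basal and cornification genes reach -2.88 for KRT14 and -3.22 for SPRR1A.

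Grainyhead-like and OVO-like proteins uphold epithelial genes and oppose mesenchymal regulators. The general epithelial markers were mostly lower, and a link to these proteins was not tested. Of 7 general epithelial markers 6 were measured and 4 of these were lower, beside 4.12% of all genes. The median difference was -1.55. RAB25, a GTPase of epithelial recycling, was at 9.23 in exposed cells and 11.33 in control cells, a difference of -2.10. The membrane protease ST14 differed by -1.86, the adhesion molecule EPCAM by -1.57 and the claudin CLDN7 by -1.53. ZEB1, a repressor of epithelial genes, was at 9.67 with pH 6.4 + DCA and 7.72 in control, 3.86-fold higher. It was the single call among 8 mesenchymal genes, beside 6.63% of all genes in either direction. Of the 8 differences 3 were above 0 and 5 below it, with a median of -0.34. SNAI2 differed by -0.55 and VIM by -0.24. ZEB2 differed by 0.52 and SNAI1 by 0.26, both under the lower quartile of both arrays. In a bulk RNA sample, fewer cells of a kind and less RNA per cell cannot be told apart.

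Markers of other cells gave mixed values, where 6.63% of all genes passed 2-fold in either direction. Of 6 fibroblast markers measured, LUM was higher, at 5.28 on the pH 6.4 + DCA array and 4.10 on the control array. Its difference of 1.18 was 0.53 with 32 added on the linear scale, under 2-fold. THY1 was at 5.10 and 6.10 on these arrays, a difference of -1.003 that was -0.95 after centring, also under 2-fold. The summed linear signal of the fibroblast list was 8.92 on the log2 scale in exposed cells and 9.18 in control cells. Of 6 leukocyte markers, CD14, which epithelial cells can also express, was higher by 2.11, and PTPRC, found on all leukocytes, was at 5.07 with pH 6.4 + DCA and 5.03 in control, under the median of both arrays. Their summed signal was 9.01 in exposed cells and 8.14 in control cells on the log2 scale, and without CD14 it was 7.36 and 7.65. The part of other cells in the values of the members was not tested.

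As labelled, CP-A is a Barrett's line, and its arrays held signals of both squamous and simple epithelium. The squamous keratin KRT5 and the desmosomal cadherin DSG3 lay above the upper quartile of both arrays, as did KRT7, KRT8, KRT18 and KRT19 of simple epithelia. The suprabasal keratin KRT4 was at 11.21 in exposed cells and 11.31 in control cells. KRT13, IVL and SPRR3, also suprabasal, lay under the median of both arrays. Intestinal markers were weak, with CDX2 at 6.42 and 6.59 and CDH17 at 3.97 and 3.58 on the pH 6.4 + DCA and control arrays. VIL1, MUC2 and MUC5AC were also under the median on both arrays.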

How the data were processed

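Total RNA of 2 CP-A cultures was hybridized to Clariom S human arrays. The deposited log2 values were made by the authors with Transcriptome Analysis Console (4.0, as the submitters' processing notes name it). Background correction, summarization, normalization and genome build: not given in the sources used here. That table held 21448 rows with values from 2.16 to 18.6, of which 17709 had 1 gene symbol in the platform annotation and 3739 had none. Transcript clusters of the autosomes and X with 1 symbol were kept, 17675 in all, and the row with the highest mean per gene, which gave 17660 genes. Every listed gene had 1 row. Array number limits the precision, and no test was possible.

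The members and the 11 other gene lists were chosen with earlier results of these data known. Named genes are the 9 members measured, listed genes that differed by 2-fold or more, and the relative with the largest difference; others were named for family, level or role after their values were seen. Alternative settings were quantile normalization, arrays centred by their medians, a lowess trend on level taken out (span 0.3), 32 added to linear signals, weak rows left out (below the 25th percentile of mean level), the mean over rows of a gene, and thresholds of 1.5-fold and 3-fold. Promoter sequences came from RefSeq on GRCh38.p14. Python 3.11.15, numpy 2.4.6, pandas 2.3.3, statsmodels 0.14.6 and matplotlib 3.10.9 were used. On simulated arrays of these genes, all 200 genes changed by a known amount were recovered in the right direction. That amount was well above the 2-fold threshold, so this checks the steps only. It does not show how well smaller differences, such as those of the members, are found.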

Additional observations from a re-analysis of the deposited data

How the results depend on the processing

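No member passed 2-fold, and none changed sign, in the settings run, which were centring, quantile normalization, removal of the lowess trend, 32 added on the linear scale, leaving out weak rows and the mean over rows. The left-out weak rows included OVOL1, ZNF750, GRHL1 and TFAP2C, so these 4 have no value there, and the median of the members, -0.08 with all 9, was 0.28 over the 5 that were left. In the other settings at 2-fold the median lay between -0.11 and -0.02. KLF4 ranged from 0.74 to 0.84 and GRHL3 from -0.76 to -0.40, with -0.40 where 32 was added. At 1.5-fold 1 member was higher and 1 lower, 3 family relatives were lower and 0 higher, 6 basal genes lower and 1 higher, 3 other regulators lower and 2 higher, and 6 suprabasal genes lower and 2 higher. At 3-fold 1 other regulator and 2 suprabasal genes were lower, and 0 basal and 0 suprabasal genes were higher. With 32 added, 1 other regulator was lower. Over all genes, 444 were higher and 727 lower at 2-fold, 1864 and 2091 at 1.5-fold, 86 and 263 at 3-fold, and 248 and 500 with 32 added. The lower counts at 3-fold follow from the stricter threshold. No paired analysis was possible because each condition had 1 array. Weak signal limits OVOL1, ZNF750, GRHL1 and TFAP2C most.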

Other observations

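Regulators of columnar and intestinal cells, which take the place of the squamous programme in Barrett's esophagus, were also listed. Of 14 listed 11 were measured, and 1 of these passed 2-fold, beside 6.63% of all genes, so that the count does not set the list apart. It was FOXA2, a forkhead factor of foregut endoderm, at 7.44 with pH 6.4 + DCA and 8.61 in control, a difference of -1.17. GATA6 differed by -0.53, SOX9 by -0.03 and CDX1 by 0.27, and the median of the list was -0.03. After centring SOX9 and the median were both at 0.02. Of 18 columnar genes measured, 1 passed 2-fold, beside 6.63% of all genes. The keratin KRT18 was lower, at 12.66 in exposed cells and 14.13 in control cells. AGR2, a disulfide isomerase of secretory cells, was at 7.80 with pH 6.4 + DCA and 6.86 in control, a difference of 0.95 that was 1.01 after quantile normalization and 1.001 after centring. The median of this list was -0.29.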
